A study of Mus musculus with 2 samples.

Results

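Large olfactory receptor gene clusters on mouse chromosomes 2, 7 and 9 were examined in methylated DNA immunoprecipitation sequencing (MeDIP-seq) of white fat. The fat came from the epididymal depot, a visceral pad next to the testis. The clusters were taken as fixed stretches of the mm9 genome, namely positions 85000000 to 90000000 of chromosome 2, 109700000 to 116000000 of chromosome 7 and 37500000 to 40000000 of chromosome 9. A peak belonged to a cluster when its midpoint lay inside. By this rule 348 of 166432 peaks of the chow library (STD) and 357 of 175767 peaks of the high-fat library (HFD) were members, 705 of 342199 in all. The 3 Mb on either side of each cluster, called flanks below, held 1406 STD and 1509 HFD peaks.

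Male C57BL/6J mice, an inbred strain, were given regular chow or a high-fat diet (60% of kcal as fat) from an age of 4 weeks, over 5 months. MeDIP-seq captures DNA fragments that carry 5-methylcytosine with an antibody, and a peak is a stretch where the authors' peak caller found captured fragments enriched. There was 1 library per diet, and the number of mice behind it is not given in the labels. The lists hold positions and no counts, so sequencing depth is unknown. With no replicates, nothing below could be checked against the spread between samples, and no test gives a p. Exact 95% intervals are printed in their place. They reflect counting error alone and take neighbouring peaks to be independent.

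Olfactory receptors are odorant receptors of the G protein-coupled family, and their genes form the largest gene family of the mouse. They stand in long tandem arrays on many chromosomes, and a sensory neuron of the nose expresses a single member of the repertoire while the others remain silent. Their promoters are known to be rich in A and T and poor in CpG, the dinucleotide on which mammalian DNA methylation mostly sits. Captured signal in MeDIP-seq depends on methylation and also on how many CpG sites a fragment holds, and an empty stretch may still be methylated. How well reads can be placed within tandem arrays of similar genes, and gaps of the assembly, were not examined. Expression was not measured in these libraries, so the silence of the receptor genes in fat was not checked here.

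The makeup of the clusters was taken from the order of genes in RefSeq, on the later build GRCm38.p6, and no peak was placed at a gene with it. The table lists 1429 olfactory receptor genes, and 658 of them (46.0%) stand in the long arrays of chromosomes 2, 7 and 9. The chromosome 2 array runs from Olfr987 to Olfr1274 with 293 receptor genes, 222 of them protein-coding, and 3 other protein-coding genes among them (Fads2b, Pramel7 and Pramel6). It spans 5.07 Mb of that build. The chromosome 9 array runs from Olfr160 to Olfr986 with 127 receptor genes and 3 other protein-coding genes (Vwa5a, AW551984 and Tmem225), over 2.48 Mb. On chromosome 7 there are 2 arrays, of 158 and 80 receptor genes, which span 2.89 and 2.22 Mb. The first also holds 27 other protein-coding genes, among them the beta-globin genes Hbb-bt, Hbb-bs, Hbb-bh1, Hbb-bh2 and Hbb-y and a group of Trim genes. Between the 2 arrays lie 21 protein-coding genes outside the receptor family, such as Ilk (integrin-linked kinase), Smpd1 (acid sphingomyelinase), Hpx (the haem-binding plasma protein hemopexin) and Tpp1 (a lysosomal peptidase). The chromosome 7 cluster is thus less purely made of receptor genes than the other two.

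RefSeq promoter windows of 300 bases (250 before and 50 after the annotated gene start) were found for 435 of the 658 receptor genes, as 437 windows. The motif CG, which reads the same on both strands, occurred a median of 1 time per window (quartiles 0 and 2), against a median of 8 in the 31903 windows of genes outside the family. It was present in 64.8% of the cluster windows and in 94.6% of all 32851 promoter windows. The median share of G and C was 34.0% in the receptor windows and 53.3% in the windows outside the family. In 71.6% of the receptor windows the gene start is an ATG, against 5.83% of all windows, so many of these models begin at the start of translation and their windows lie near it instead of at a mapped transcription start. Within the limits of these gene models, the receptor windows held few CpG sites. The CpG content of the whole clusters and of their flanks was not counted.

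**Figure D1:**
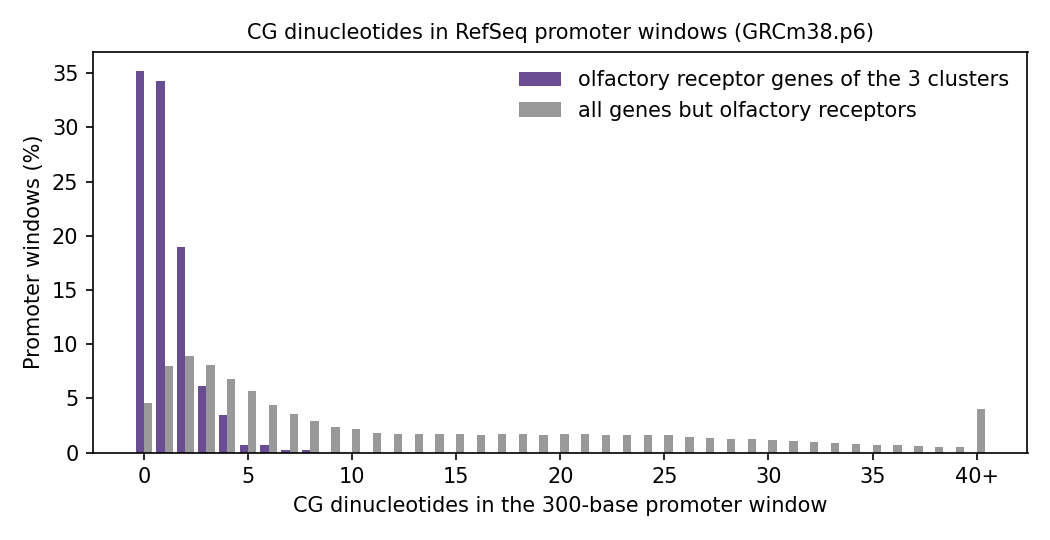
Number of CG dinucleotides (x axis, the last bar is 40 or more) in RefSeq promoter windows of 300 bases on GRCm38.p6, as percent of windows (y axis), for olfactory receptor genes of the 3 clusters and for all genes outside the family. The receptor genes gather at 0 to 2 CG, while the other genes reach far beyond, with medians of 1 and 8.

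Promoter sequences are shown as examples, 1 for each cluster's chromosome and 1 of a gene next to a cluster. Each receptor gene is the first protein-coding one in gene order whose window holds the median number of CG and whose start is not an ATG. Ptprj, a receptor-type protein tyrosine phosphatase gene, is the nearest coding gene after the chromosome 2 array, and was picked because its window held the most CG (42) among the windows of the arrays' immediate neighbours. It is thus an extreme beside typical receptor genes. A second Ptprj window holds 6 CG, and the windows of the other neighbours hold 4 (Lrrc55), 9 (Rrm1) and 17 (Zfp202), while Nlrp10 and Panx3 were not matched. The 250 bases before the gene start are given 5′ to 3′ on the gene's own strand, with every CG in capitals. Positions are those of GRCm38.p6 and cannot be set beside the mm9 positions of the peaks. Olfr1030 is at chr2:85979062-85979311, plus strand, Olfr543 at chr7:102477903-102478152, minus strand, Olfr881 at chr9:37992242-37992491, plus strand, and Ptprj at chr2:90580596-90580845, minus strand.
Olfr1030: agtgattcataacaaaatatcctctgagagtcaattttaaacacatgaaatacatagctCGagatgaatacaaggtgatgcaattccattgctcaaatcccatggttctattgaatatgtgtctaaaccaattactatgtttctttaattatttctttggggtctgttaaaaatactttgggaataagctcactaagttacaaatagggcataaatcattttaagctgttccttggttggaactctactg
Olfr543: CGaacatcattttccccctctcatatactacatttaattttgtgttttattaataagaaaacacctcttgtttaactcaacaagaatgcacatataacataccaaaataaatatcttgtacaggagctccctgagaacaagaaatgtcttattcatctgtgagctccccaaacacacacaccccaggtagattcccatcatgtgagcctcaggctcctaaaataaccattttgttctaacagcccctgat
Olfr881: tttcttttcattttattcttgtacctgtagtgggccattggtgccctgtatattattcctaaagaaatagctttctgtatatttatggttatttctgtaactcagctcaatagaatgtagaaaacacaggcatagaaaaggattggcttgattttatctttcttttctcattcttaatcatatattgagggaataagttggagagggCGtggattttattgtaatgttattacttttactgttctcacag
Ptprj: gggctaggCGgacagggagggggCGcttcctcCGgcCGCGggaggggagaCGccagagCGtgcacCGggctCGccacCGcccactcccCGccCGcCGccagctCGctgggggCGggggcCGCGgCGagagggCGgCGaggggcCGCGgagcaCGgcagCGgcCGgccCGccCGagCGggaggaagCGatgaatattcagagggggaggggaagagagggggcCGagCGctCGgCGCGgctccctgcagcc
In these 250 bases each receptor gene has 1 CG and Ptprj has 34.

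All 3 clusters were sparse in peaks in both libraries. Together they held 25.2 STD and 25.9 HFD peaks per Mb over 13.8 Mb, whereas the flanks held 78.1 and 83.8 peaks per Mb over 18 Mb. The density was 3.10-fold lower than in the flanks in the STD library (interval 2.75 to 3.49) and 3.24-fold lower in the HFD library (2.89 to 3.65). Peaks covered 0.907% of the clusters and 2.87% of the flanks in the STD library, and 0.926% and 2.97% in the HFD library.

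The depth of the trough differed between clusters. The chromosome 2 cluster was the sparsest, with 73 STD and 66 HFD peaks in 5 Mb, or 14.6 and 13.2 peaks per Mb. Its flanks held 72.5 and 77.7 peaks per Mb, so that the cluster was 4.97-fold (3.87 to 6.45) and 5.88-fold (4.54 to 7.73) lower. The chromosome 9 cluster held 66 STD and 59 HFD peaks, at 26.4 and 23.6 per Mb, which was 3.22-fold (2.49 to 4.23) and 3.87-fold (2.95 to 5.15) below its flanks. The chromosome 7 cluster held 209 and 232 peaks, at 33.2 and 36.8 per Mb, which was 2.32-fold (1.96 to 2.74) and 2.24-fold (1.91 to 2.63) below its flanks. The intervals of chromosomes 2 and 7 did not overlap in either library.

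**Figure D2:**
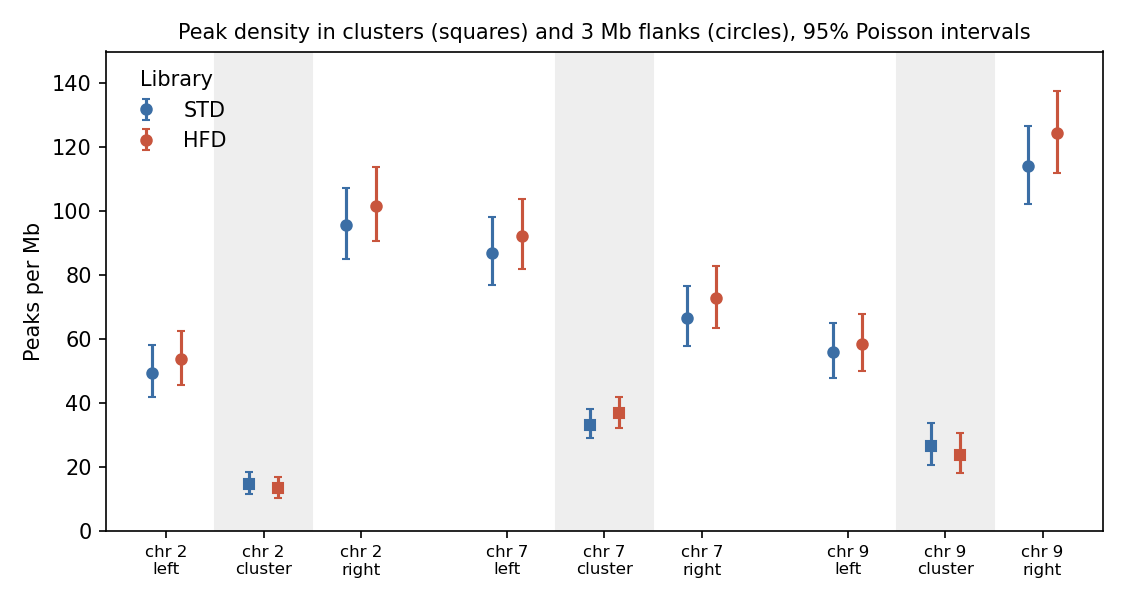
Peaks per Mb (y axis) in each cluster (squares, grey bands) and in the 3 Mb before (left) and after (right) it (circles), for the STD and HFD libraries, with exact 95% Poisson intervals. In both libraries each cluster lies below both of its own flanks, from 13.2 HFD peaks per Mb on chromosome 2 to 36.8 on chromosome 7.

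The single flanks were uneven. The lowest was the one before the chromosome 2 cluster, with 49.3 STD and 53.7 HFD peaks per Mb, and the highest the one after the chromosome 9 cluster, with 114 and 124. In each library all 6 flanks were denser than the cluster between them, and the 95% Poisson intervals of cluster and flank did not overlap in any of the 12 comparisons drawn in the plot of density.

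Set against the autosomes as a whole, the chromosome 2 cluster stood near the lower end and the other clusters did not. Of 466 other autosomal windows of 5 Mb, counted between the first and last peak of a chromosome, 4 held as few STD peaks as the chromosome 2 cluster or fewer, and 1 held as few HFD peaks or fewer. The median window held 322.5 and 347 peaks. Of 362 windows of 6.3 Mb, 59 (STD) and 62 (HFD) held as few peaks as the chromosome 7 cluster or fewer. Of 941 windows of 2.5 Mb, 155 and 116 did so for chromosome 9. Low density as such was therefore not particular to the clusters of chromosomes 7 and 9, whose contrast was with their own surroundings. These ranks are a description of the same pair of libraries and were not tested.

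The change in density lay close to the edges of the clusters. In the 1 Mb outside the 6 edges together there were 479 STD and 522 HFD peaks, and in the 1 Mb inside them 140 and 138. At every edge the outer 1 Mb held more peaks than the inner 1 Mb in both libraries, with 66 to 106 STD peaks outside and 8 to 34 inside. The step was not always at the edge itself. Edges here are those of the fixed stretches, and where the receptor arrays end on mm9 was not looked up. On the later build the chromosome 2 array spans 5.07 Mb, more than its stretch of 5 Mb, so receptor genes may lie in a flank. After the chromosome 2 cluster, the first 250 kb of the flank still held 4 peaks in each library, and the density rose beyond it. Inside, the first 250 kb of the chromosome 2 cluster (10 peaks in each library) and the last 250 kb of the chromosome 9 cluster (15 in each) were the fullest bins of their clusters. At the other ends of these clusters the bins inside the edge held fewer, with 2 STD and 4 HFD peaks at the end of chromosome 2 and 10 and 7 at the start of chromosome 9. With edges drawn in by 250 kb the density ratio to the flanks was 0.310 (STD) and 0.294 (HFD), against 0.323 and 0.309.

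Along the chromosome 2 cluster the peaks were few from end to end. The median 250 kb bin held 2.5 STD and 3 HFD peaks, against 20.5 and 23 in its flanks. Of its 20 bins, 15 held fewer peaks over both lists than the emptiest of the 24 flank bins, which held 8. The emptiest bins held 2 peaks over both lists. The bin from 86500000 to 86750000 held 1 peak of each library, and the bin from 88500000 to 88750000 held 2 STD and 0 HFD peaks. The longest stretch without a peak of either library ran from 89360418 to 89627281, or 267 kb. Stretches of at least 100 kb without a peak numbered 17 and took up 50.9% of the cluster, whereas its flanks had 3 and 1 such stretches.

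The chromosome 7 cluster was mixed. The median bin held 6 STD and 7 HFD peaks, and 19 of its 25 whole bins lay below the emptiest flank bin, which held 20 over both lists. The fullest bin, from 112700000 to 112950000, held 26 STD and 31 HFD peaks, above the flank medians of 18.5 and 20.5. The bin directly after it, from 112950000 to 113200000, was the emptiest, with 0 STD and 1 HFD peak. The longest stretch without a peak in the 3 clusters followed at the same place, from 112953682 to 113384183, or 431 kb. A dense and an empty stretch thus adjoined each other here, in both libraries.

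The fullest bin and the bin before it, from 112450000 to 112950000, were singled out after their counts had been seen. This 0.5 Mb held 46 STD and 58 HFD peaks, or 22.0% and 25.0% of the cluster's members, at 92 and 116 peaks per Mb. Its peaks were broader at the median, at 355 bp (STD) and 338.5 bp (HFD), than those of the rest of the cluster, at 308 and 314 bp. Of the peaks of at least 500 bp it held 11 of 25 (STD) and 12 of 28 (HFD). Without this stretch the cluster held 28.1 and 30.0 peaks per Mb, 2.73-fold and 2.75-fold below its flanks. Whether the stretch holds the non-receptor genes that lie between the 2 receptor arrays of the chromosome was not tested, since no annotation of mm9 was used. Smaller rises stood in both libraries from 111200000 to 111700000, with 25 peaks in each, and from 114200000 to 114700000, with 24 and 25.

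The chromosome 9 cluster held 4 to 17 peaks over both lists in each bin before its last, which held 30. The median bin held 6 peaks in each library, against 22.5 STD and 25 HFD peaks in the flanks. The emptiest bin, from 39000000 to 39250000, held 2 peaks of each library. None of its 10 bins fell below the emptiest flank bin, which held 3 peaks over both lists, because the flank before the cluster has an empty stretch of its own, of 221 kb. Within the cluster the longest stretch without a peak, from 38996892 to 39176615, was 179.7 kb long.

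**Figure D3:**
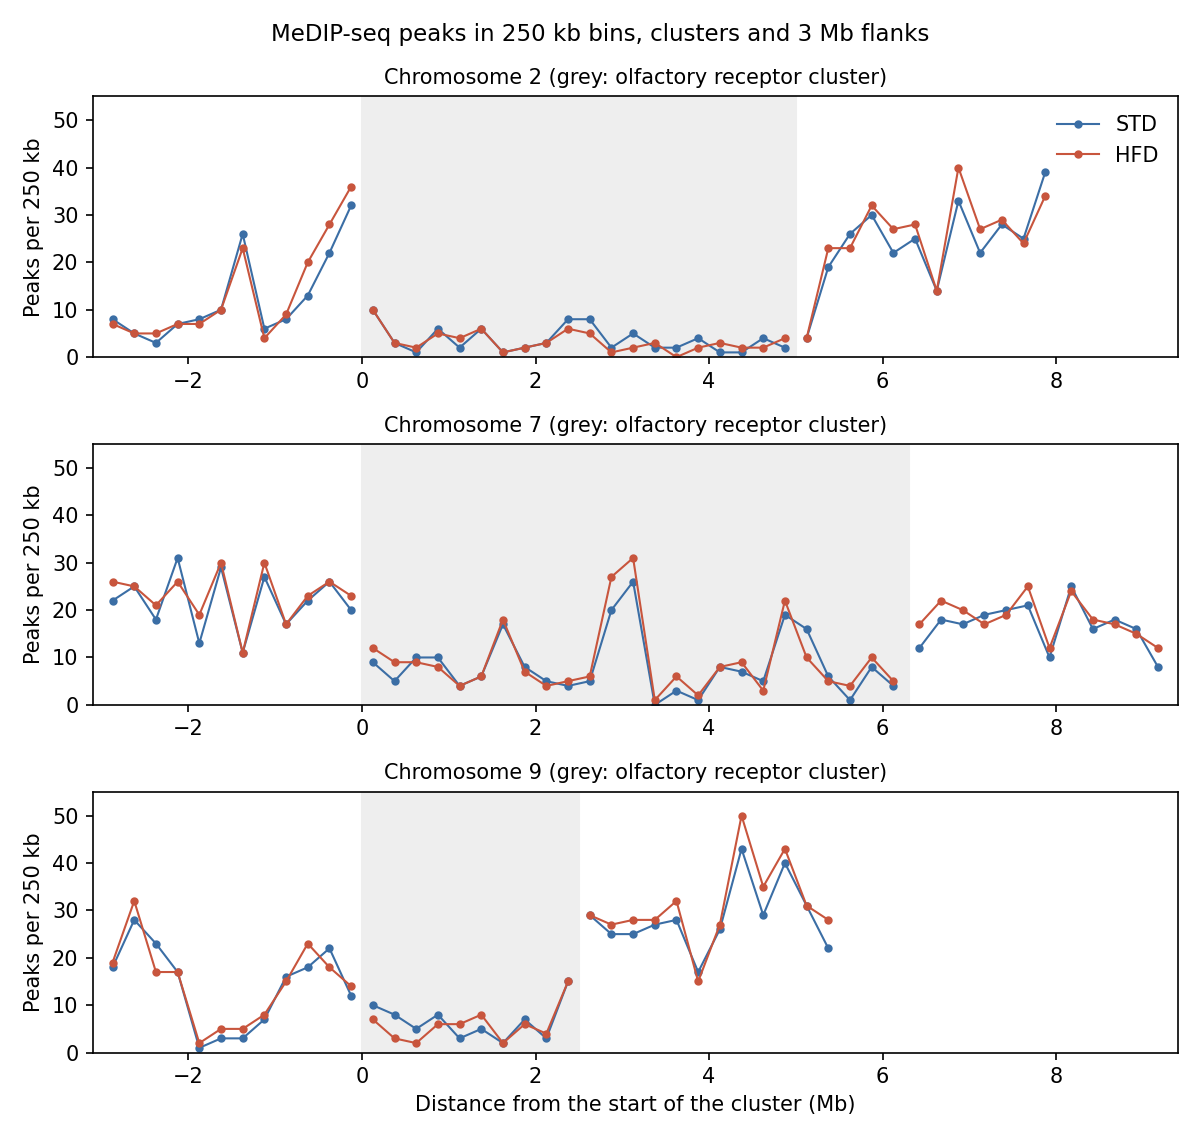
Peaks per 250 kb bin (y axis) against the distance from the start of each cluster (x axis, Mb) in the STD and HFD libraries, with the cluster in grey and 3 Mb of flank on either side. Both lines stay low across the chromosome 2 and 9 clusters, and on chromosome 7 they rise together to 26 STD and 31 HFD peaks in 1 bin before dropping to 0 and 1 in the next.

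Peaks in the clusters were further apart. This is not separate from their lower density, since the mean gap in a stretch is largely set by its number of peaks. A part of the spacing beyond density was not tested. The gap between neighbouring peaks of 1 library had a median of 19.7 kb in the clusters and 7.21 kb in the flanks with STD, a ratio of 2.73 (2.12 to 3.45). With HFD the medians were 16.1 and 7.03 kb, a ratio of 2.29 (1.83 to 2.91). The bounds combine the exact intervals of both medians. On chromosome 2 the median gap reached 52.3 kb (STD) and 54.8 kb (HFD), on chromosome 9 it was 21.9 and 21.5 kb, and on chromosome 7 it was 16.3 and 12.4 kb. For chromosome 7 with HFD the bounds of the ratio, 0.984 to 2.14, included 1.

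The mean gap of the clusters, 39.0 kb (STD) and 38.2 kb (HFD), was far above the median, so a minority of long gaps took up much of the length. Of the gaps in the clusters, 21.7% (75 of 345, STD) and 21.8% (77 of 354, HFD) were at most 5 kb, against 36.8% and 36.7% in the flanks. On chromosome 2 the share was 12.5% and 12.3%. Over both libraries, 28 stretches of at least 100 kb without any peak took up 31.9% of the clusters, while 7 such stretches took up 5.54% of the flanks.

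**Figure D4:**
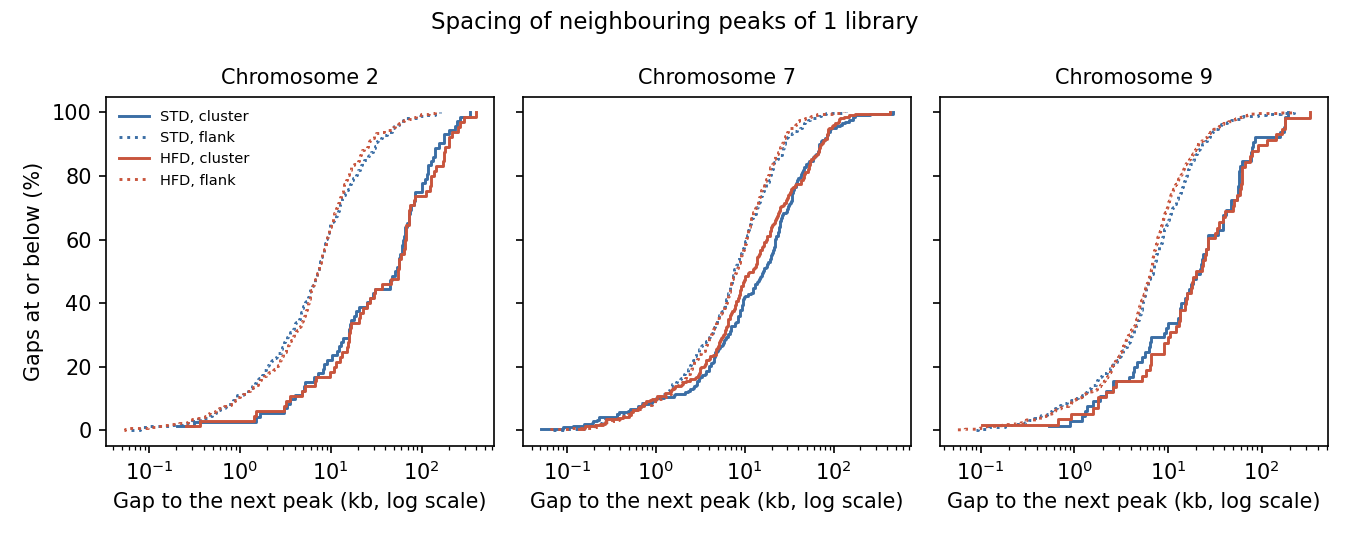
Share of gaps at or below a given length (y axis, %) against the gap to the next peak of the same library (x axis, kb, log scale), for clusters (solid lines) and flanks (dotted lines) of each chromosome. The cluster lines lie to the right of the flank lines, furthest on chromosome 2 with medians of 52.3 kb (STD) and 54.8 kb (HFD), and on chromosome 7 the lines come together among the shortest gaps.

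Peak width differed little. The median width of cluster peaks was 310.5 bp with STD, against 331 bp in the flanks, a difference of -20.5 bp (bounds -32 to -4). With HFD both medians were 318 bp, a difference of 0 bp (-17 to 15). The STD difference was -31 bp (-55 to -12) on chromosome 2, -21 bp (-41 to 18) on chromosome 7 and -8.5 bp (-35 to 31) on chromosome 9. With HFD it was -20 bp (-43 to 26), 0 bp (-24 to 22) and 10 bp (-32 to 51) in the same order. The STD cluster list held more narrow peaks, as 28.4% were within 20 bp of the narrowest width of the list, against 21.1% of the flank peaks. A further 23.3% against 17.9% were 21 to 50 bp above it. In the HFD library the shares were 25.8% and 23.8%, and 18.5% and 19.7%. For the clusters together, a narrower width was therefore seen in 1 of the 2 libraries.

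Peaks of at least 500 bp numbered 39 with STD (11.2% of the members) and 35 with HFD (9.80%), and in the flanks they made up 11.3% and 9.74%. On chromosome 2 the share was 8.22% (6 of 73, STD) and 4.55% (3 of 66, HFD), against 13.6% and 11.2% in its flanks. On chromosome 7 they were 25 of 209 STD and 28 of 232 HFD members, against 10.8% and 9.09% of its flanks' peaks, and on chromosome 9 the share was 12.1% and 6.78%, against 9.80% and 9.12%. These differences were not tested. A partner in the other library, as defined below, was found for each of the 39 STD peaks and for 34 of the 35 HFD peaks. Broad peaks mostly had a partner elsewhere too. At a similar limit, over 200 bp above the narrowest width of the list, 94.3% (STD) and 94.1% (HFD) of the flank peaks had one. In the whole lists these shares were 93.7% and 92.8%. The exception was the HFD peak on chromosome 7 from 112910577 to 112911119, 543 bp wide, with an STD peak 0.269 kb away.

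The widest member of each cluster was the same region in both libraries. For chromosome 2 the HFD peak covered 86338987 to 86340088 (1102 bp), and the STD peak 86339143 to 86340087 (945 bp). For chromosome 7 the HFD peak covered 112582909 to 112583979 (1071 bp) and the STD peak 112582948 to 112583994 (1047 bp), inside the dense stretch described above. For chromosome 9 the HFD peak covered 38220669 to 38221436 (768 bp) and the STD peak 38220635 to 38221386 (752 bp). The genes at these positions were not looked up, for lack of an mm9 annotation.

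The libraries were then compared by partners. A partner is a peak of the other list that overlaps by at least 1 bp. In the clusters 106 of 348 STD peaks had none (30.5%, interval 25.7 to 35.6), where the share in the whole STD list was 26.5%. Of 357 HFD peaks, 116 had none (32.5%, 27.7 to 37.6), where the share in the whole HFD list was 30.3%. Both intervals include the share of the whole list, so the clusters as a set did not differ from the genome beyond counting error. Taken singly, the chromosome 2 cluster did with STD, as 31 of its 73 peaks had none (42.5%, 31.0 to 54.6). The intervals of the other clusters, and of each cluster with HFD, included the share of the whole list. They are not adjusted for their number.

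Against their flanks the result for the clusters together was the same. With STD, 69.5% of the cluster peaks (64.4 to 74.3) and 73.1% of the flank peaks (70.7 to 75.4) had a partner, an odds ratio of 0.840 (0.645 to 1.10). With HFD the shares were 67.5% (62.4 to 72.3) and 68.2% (65.8 to 70.5), an odds ratio of 0.969 (0.753 to 1.25). Both intervals include 1 and are wide, so equality of clusters and flanks is not shown.

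On chromosome 2 the STD share was lower in the cluster than in its flanks. Of the STD peaks there, 42 of 73 had a partner, or 57.5% (45.4 to 69.0), against 76.3% (72.0 to 80.2) in the flanks, an odds ratio of 0.421 (0.244 to 0.731). From the HFD side, 42 of 66 peaks had one, or 63.6% (50.9 to 75.1), against 71.2% in the flanks, an odds ratio of 0.707 (0.400 to 1.27). On chromosome 7 the shares were 75.6% (STD) and 67.7% (HFD), with odds ratios of 1.11 (0.754 to 1.66) and 0.963 (0.681 to 1.37). On chromosome 9 they were 63.6% and 71.2%, with odds ratios of 0.750 (0.427 to 1.34) and 1.31 (0.708 to 2.53). Of these 6 intervals, 1 left out 1, the intervals are not adjusted for their number, and differences between clusters were not tested.

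**Figure D5:**
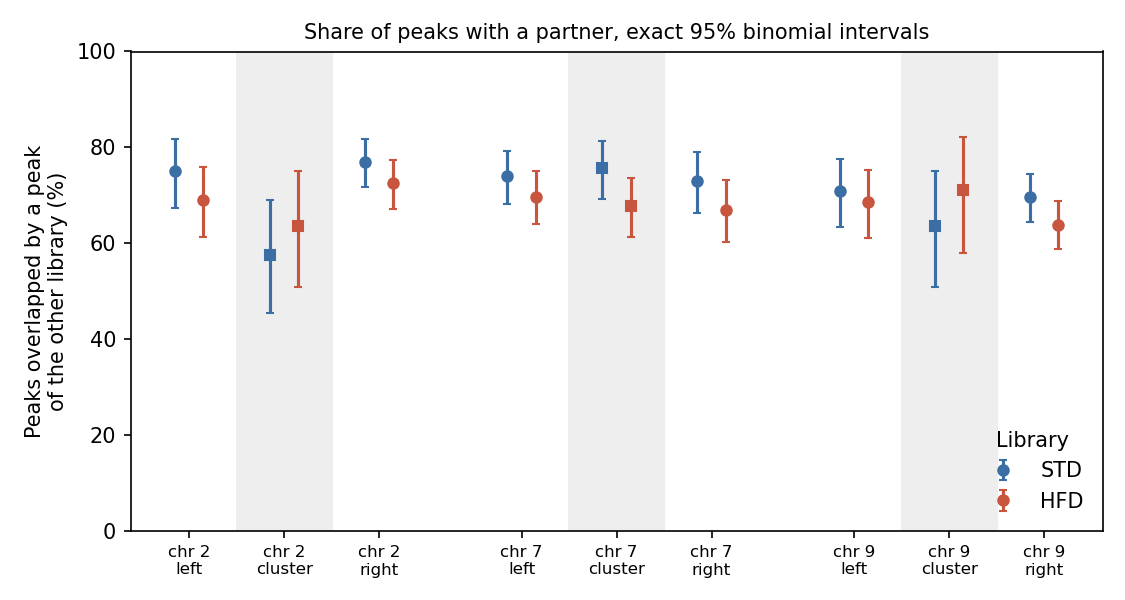
Share of peaks overlapped by a peak of the other library (y axis, %) in each cluster (squares, grey bands) and its flanks (circles) for the STD and HFD libraries, with exact 95% binomial intervals. The STD value of the chromosome 2 cluster, 57.5%, lies below those of its flanks, 75.0% and 77.0%, and its interval still meets that of the flank before it.

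Sparse stretches elsewhere had a low share of partners too. In autosomal windows of 1 Mb outside the clusters, the STD share was 63.9% where both lists together had 1 to 40 peaks, 68.7% at 41 to 80 and 75.1% above 160. For HFD these shares were 60.8%, 64.7% and 71.5%. The chromosome 2 cluster, with 27.8 peaks of both lists per Mb, falls in the first class, and its intervals include the values of that class in both libraries. Against all windows of 1 to 80 peaks, the clusters together had odds ratios of 1.11 (0.875 to 1.41) for STD and 1.19 (0.946 to 1.50) for HFD. The limit of 80 was set on the windows alone, and the clusters kept all their peaks. These include 46 STD and 58 HFD peaks within 0.5 Mb of chromosome 7. As the share rose with density, this comparison is not matched for density.

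In the clusters as in the flanks, peaks with a partner were wider than those without. The median width was 348 bp (STD) and 340 bp (HFD) for cluster peaks with a partner, and 280.5 and 281.5 bp for those without. In the flanks the medians were 351 and 341 bp with a partner, and 293 and 283 bp without. Among the peaks over 200 bp above the narrowest width of their list, 98.0% (STD) and 93.8% (HFD) of the cluster peaks had a partner, against 94.3% and 94.1% in the flanks. Among those up to 20 bp above it the shares were 43.4% (33.5 to 53.8) and 45.7% (35.2 to 56.4) in the clusters. In the flanks they were 53.4% (47.5 to 59.2) and 42.6% (37.4 to 47.9), so the direction of the difference was opposite in the 2 libraries, and in the whole lists 47.5% and 42.8%. With the flanks' mix of widths, the cluster shares would be 74.2% and 67.7%, against 73.1% and 68.2% in the flanks themselves.

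Peaks that are partners overlap by definition, so their midpoints cannot lie far apart, and their distance is given as a description. For the 237 pairs of members with exactly 1 partner each, the midpoints were a median of 29 bp apart, against 23.5 bp for 1015 pairs in the flanks. Members without a partner had a median distance to the nearest peak of the other library of 14.4 kb for STD and 8.89 kb for HFD, against 3.13 and 4.17 kb in the flanks. More than 50 kb from the nearest peak of the other list were 18 of the 106 STD members without a partner (17.0%) and 11 of the 116 HFD members without one (9.48%). In the flanks these were 1 of 378 and 1 of 480, and in the whole lists 2.06% and 2.08%. Of the 18 STD members, 14 lay on chromosome 2 and 0 on chromosome 7. The 11 HFD members were spread otherwise, with 5 on chromosome 2, 5 on chromosome 7 and 1 on chromosome 9. Among all members without a partner, 4.72% (5 of 106, STD) and 6.03% (7 of 116, HFD) had a peak of the other list within 500 bp. These shares were 11.1% and 8.96% in the flanks and 10.3% and 9.57% in the whole lists. Distances to the nearest peak move with peak density, which was lower in the clusters, and a part beyond density was not tested.

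The broadest members without a partner were narrower than the broadest shared ones. In the chromosome 2 cluster the broadest unpartnered STD peak spanned 87217256 to 87217681 (426 bp), and the next HFD peak was 60.2 kb off. The broadest unpartnered HFD peak there spanned 89806724 to 89807096 (373 bp), 19.4 kb off the next STD peak. In the chromosome 9 cluster the HFD peak at 39605985 to 39606395 (411 bp) stood 74.9 kb off, and the STD peak at 37582443 to 37582924 (482 bp) 6.07 kb off the next peak of the other list. In the chromosome 7 cluster the STD peak at 112596530 to 112596950 (421 bp) had an HFD peak at a distance of 0.918 kb.

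The number of peaks in the clusters did not differ between the libraries beyond counting error. The HFD library had 357 and the STD library 348, a ratio of 1.03 (0.883 to 1.19), where the ratio was 1.07 (0.997 to 1.15) in the flanks and 1.06 (1.049 to 1.063) over the genome. The ratio in the clusters relative to the flanks was 0.956 (0.808 to 1.13). By cluster, the HFD over STD ratio was 0.904 (0.638 to 1.28) on chromosome 2, 1.11 (0.917 to 1.34) on chromosome 7 and 0.894 (0.618 to 1.29) on chromosome 9. The intervals of these ratios take the 2 lists as independent counts. The lists share many peaks, as 240 of 462 regions left after merging overlapping peaks in the clusters were in both. Peaks in 1 list only numbered 106 for STD and 116 for HFD. Of the members without a partner, 52.3% (45.5 to 59.0) came from the HFD library, against 55.9% in the flanks and 54.7% over the genome. With 1 library per diet, these values compare 2 libraries and not the diets.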

How the data were processed

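MeDIP-seq peaks of 2 libraries (1 per diet) were analysed. The authors deposited 1 list of peaks per library, in which the start and end of each peak are the measurements, with no score, height or count. Per the submitters' processing notes, BWA was the aligner and mm9 the build. Which peak caller, threshold or input control was used is not given in the sources used here. Groups follow the diet in the labels. The analysis kept chromosomes 1 to 19, X and Y, and 6 mitochondrial peaks per library were left out. The narrowest peak had 263 bp (STD) and 255 bp (HFD).

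Densities, widths, gaps and partners were computed with Python 3.11.15, numpy 2.4.6, pandas 2.3.3 and scipy 1.17.1. Ratios of counts have conditional binomial intervals, shares Clopper-Pearson intervals, medians order-statistic intervals, and odds ratios exact conditional intervals. The density ratio with its interval and the share of peaks with a partner were tested on simulated lists. Widths, gaps, odds ratios and the intervals of shares and medians were not. In the simulated lists peaks fell at random at an even density within each region, with the same ratio in every cluster. How the interval behaves under the uneven densities of the data was therefore not checked. Named peaks and bins are the widest peaks, the widest without a partner, the longest empty stretches, and the fullest and emptiest 250 kb bins of each cluster. An array is a run of receptor genes whose starts lie less than 1 Mb apart, with at least 60 members. The regions and choices were made with earlier results of these data known. The gene table follows GRCm38.p6, so it served for names, order and promoter windows.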

Additional observations from a re-analysis of the deposited data

How the results depend on the processing

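Of 89 recomputed values, 78 stayed within the counting interval of the reported value, and 11 moved beyond it. No value whose reported interval left out its null value changed direction. Most of the 11 came from leaving out a cluster. The density ratio to the flanks, 0.323 (STD) and 0.309 (HFD), was 0.386 and 0.380 without the chromosome 2 cluster and 0.235 and 0.197 without the chromosome 7 cluster, and for peaks of at least 300 bp the STD value was 0.274. Without the chromosome 7 cluster the spacing ratio was 3.81 (STD) and 4.01 (HFD), the STD share with a partner was 60.4%, and its odds ratio to the flanks was 0.568 (0.387 to 0.838), the one setting in which an interval for the clusters together left out 1. Ratios whose reported interval included 1 did change side. The odds ratio of a partner, 0.840 (STD) and 0.969 (HFD), was 1.05 and 1.07 without the chromosome 2 cluster. Against autosomal windows of 1 to 80 peaks the odds ratio was 1.11 and 1.19. That comparison was chosen after seeing the data and set no such limit on the clusters. For peaks of at least 300 bp it was 1.002 (STD). The HFD over STD ratio of peaks, 1.03, was 0.899 without the chromosome 7 cluster. The STD width difference of -20.5 bp was -0.5 bp for peaks of at least 300 bp, a filter that removes many of the narrow peaks that were more frequent in the clusters. No paired analysis was possible because there is a single library on either diet, which also means that leaving out replicates could not be done. As the depth is unknown, an empty stretch may hold sites that a deeper library would call. It may also hold few CpG sites, sequence in which reads cannot be placed, or a gap of the assembly. What these contribute to the low densities, empty stretches and window ranks was not tested.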
